A study of Homo sapiens with 4 samples.

Results

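The FOX, SOX and KLF genes encode 3 large families of sequence-specific transcription factors, and their transcripts were described here in nuclear RNA of a triple negative breast cancer line. Members were taken by symbol alone, as every gene of the deposited transcript table named FOX with a letter from A to S and a number, SOX with a number, or KLF with a number. The rule found 53 of the 20298 listed genes and 153 of the 75165 listed transcripts, made up of 26 FOX genes with 91 transcripts, 11 SOX genes with 21 transcripts and 16 KLF genes with 41 transcripts.

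The RNA came from MDA-MB-231 cells, an established triple negative breast cancer line of mesenchymal type, transduced with a lentivirus at a multiplicity of infection of 4 to express 3x flag-YTHDC1 from a CMV promoter and selected for 4 days in 2 ug/ml puromycin. YTHDC1 is the nuclear reader of N6-methyladenosine (m6A), a methyl mark on adenosines of RNA. Cells were crosslinked with 3 exposures to ultraviolet light at 120000 uJ/cm2, and nuclear lysate with 500 ug of protein was immunoprecipitated with an antibody to the flag tag (Flag-YTHDC1 IP, 2 libraries), while lysate with 50 ug of protein was kept as input (2 libraries). All 4 libraries therefore carried the overexpressed tagged YTHDC1, and an IgG control was not analysed here.

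FOX proteins bind DNA through a forkhead (winged helix) domain, and some of them act as pioneer factors that open closed chromatin. SOX proteins carry an HMG box that bends DNA and are best known for setting cell identity during development. KLF proteins bind GC-rich and CACCC elements through zinc fingers at their C-terminal end and act as activators or repressors, depending on the cofactor they recruit. In breast epithelium, FOXA1 is known as a luminal factor, FOXC1, SOX10 and FOXQ1 are linked to basal-type or mesenchymal tumour cells, and KLF4 and KLF5 are linked to the control of epithelial growth.

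The value used throughout is the authors' mean normalized count, which is the mean over the IP and input libraries together. A gene's count is the sum over its listed transcripts. This pooled value is neither an input level nor a measure of binding to YTHDC1, and the comparison of IP with input was not analysed here. No value per library was used, so no replicate error, depth per library, interval or test can be given for any count below, and every comparison between genes or families is a description. Fewer cells expressing a gene and less RNA per cell cannot be told apart in such a bulk sample. Counts were not divided by transcript length, so a longer transcript yields more reads, and the order of the counts is not an order of molecules.

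The labelled cell line was checked against its markers. The mesenchymal and basal markers VIM, AXL, CD44 and CAV1 were all listed, with mean normalized counts of 80785, 63189, 14306 and 7624. Of the luminal and epithelial genes, ESR1, PGR and FOXA1 had no listed row, CDH1 had 10.0 and EPCAM had 78.3, whereas GATA3 had 584, next to the median of 588 over all 14050 listed protein-coding genes. YTHDC1 itself, which includes any reads of the transgene, had 55488.

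The 3 families differed in how their counts were spread over genes. Medians here cover listed genes only, which leaves out 19 of 45 FOX, 8 of 19 SOX and 2 of 18 KLF symbols. Listed FOX and KLF genes had median gene counts of 534 and 600, close to that of all listed protein-coding genes. FOX counts ran further to both ends than KLF counts. At or above 1000 there were 11 of 26 FOX genes and 5 of 16 KLF genes, beside 5314 of the 14050 protein-coding genes. SOX genes split into a high and a low set, with a median of 30.04. This order of medians turned with a minimum on transcripts, since the low SOX genes then dropped out: with transcripts of at least 10 the SOX median was 849 (8 genes), beside 728 in FOX and 600 in KLF, and with at least 100 it was 1866 (4 genes), beside 1592 and 956. A count of at least 100 was reached by 19 of 26 FOX genes (73.1%), 13 of 16 KLF genes (81.3%) and 4 of 11 SOX genes (36.4%), beside 78.6% of all protein-coding genes. At the low end, 4 of 26 FOX genes (15.4%), 5 of 11 SOX genes (45.5%) and 0 of 16 KLF genes stayed under 20, beside 8.88% of all protein-coding genes. Together the 3 families held 0.229% of the summed counts of the table. FOX genes held 49693 mean normalized counts, KLF genes 15548 and SOX genes 11260.

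**Figure D1:**
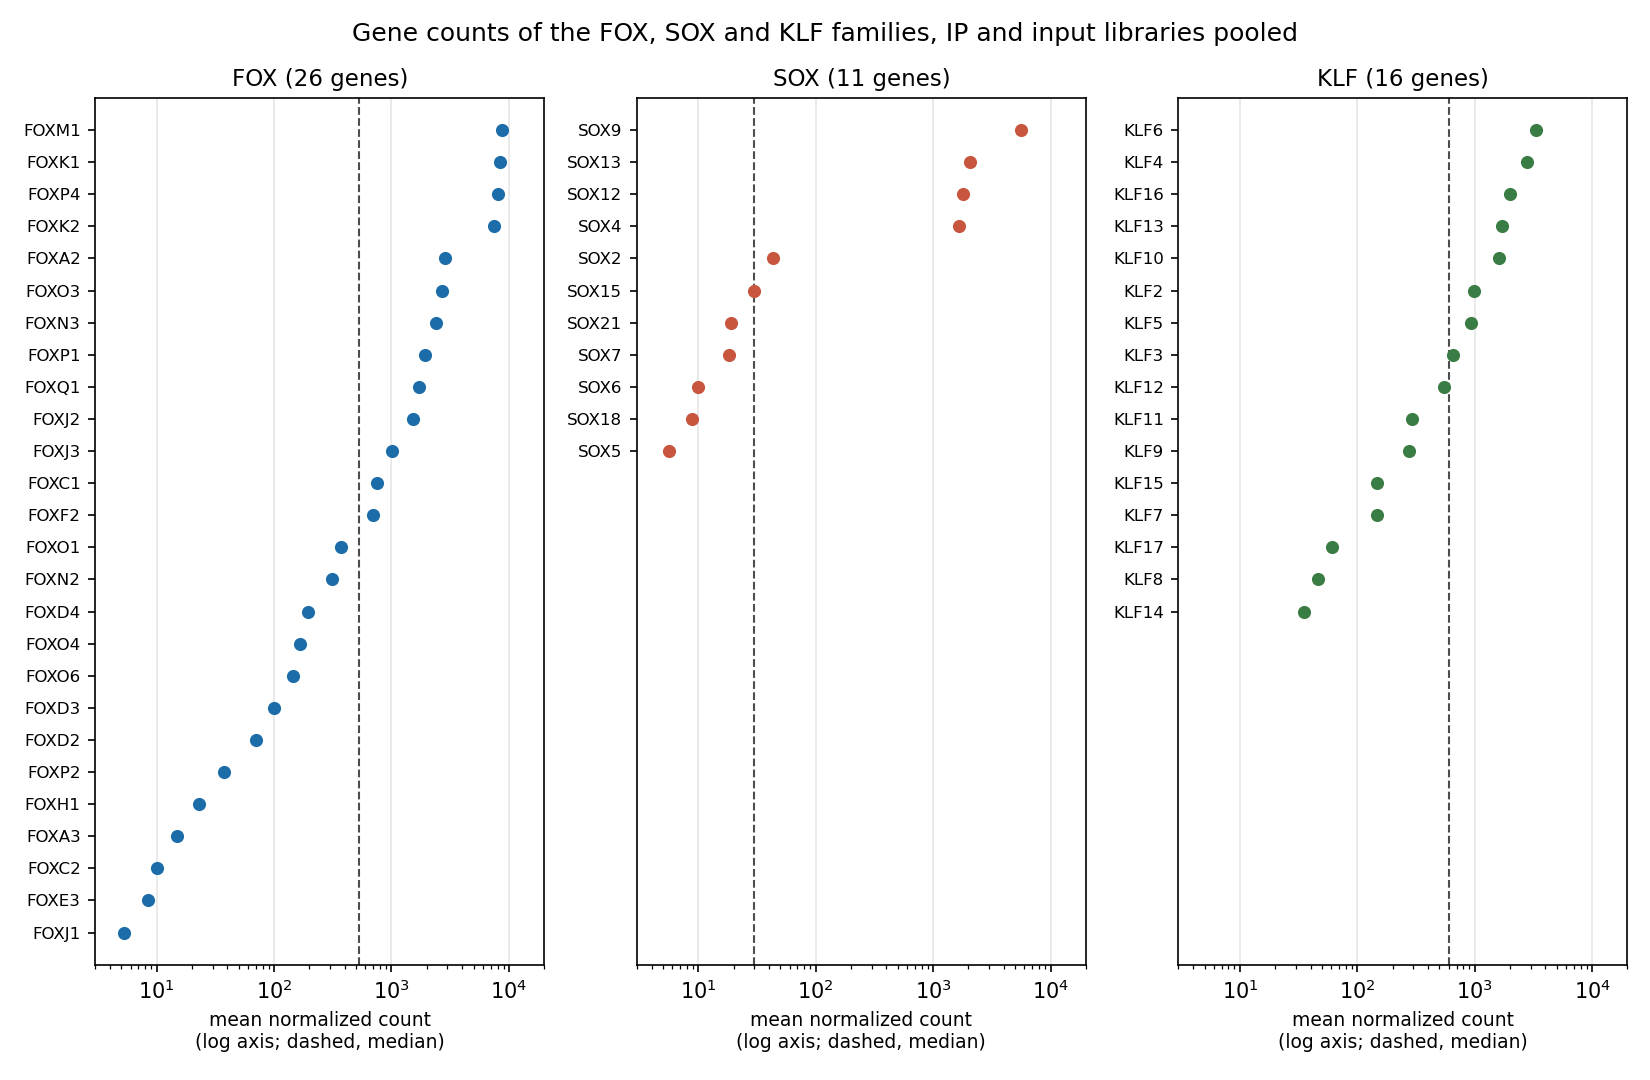
Mean normalized count of each FOX, SOX and KLF gene (authors' mean over IP and input libraries, summed over the gene's listed transcripts, log axis), 1 point per gene, with each family's median as a dashed line. The FOX points run from 5.30 to 8699 and the KLF points from 35.4 to 3330 without a wide gap, while no SOX point lies between SOX2 at 43.2 and SOX4 at 1655.

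Among FOX genes, 4 stood above the others. FOXM1 (ENSG00000111206.12), a driver of the G2 to M programme of dividing cells, had the highest count at 8699. The order of FOXM1 and FOXK1 turned with the most abundant transcript only, where FOXK1 had 8375 and FOXM1 had 3825, and with protein-coding transcripts only, where they had 8406 and 8261. Over all transcripts, FOXK1 had 8443 and FOXK2 had 7418. Both are ubiquitous factors that bind many promoters and control metabolism and autophagy. FOXP4, one of the FOXP repressors that pair through a leucine zipper, had 8048. These 4 genes held 65.6% of the family's counts, and each lay above at least 95% of all listed protein-coding genes. The next gene, FOXA2, was 2.58-fold below FOXK2.

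FOXA2, an endodermal pioneer factor, had 2879, whereas its relative FOXA3 had 14.9 and FOXA1, the luminal pioneer factor of the same subclass, had no listed row and is not analysed here. All 4 FOXO genes, the insulin- and AKT-restrained factors of stress and survival, were listed. FOXO3 had 2708, which was 7.34-fold the count of FOXO1 at 369. FOXO1 in turn was 2.20-fold above FOXO4 at 168, and FOXO6 had 146. The subclass thus ran over more than 1 order of magnitude, with FOXO3 on top.

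The FOXP subclass spanned a wider range than the FOXO subclass. FOXP4 was 4.20-fold above FOXP1, a lymphoid and epithelial regulator with 1916, and FOXP1 was 51.1-fold above FOXP2, the factor known from speech development, with 37.5. FOXN3, a checkpoint-linked repressor, had 2387 and its relative FOXN2 had 313. FOXJ2 had 1529 and FOXJ3 had 1020, whereas FOXJ1, the master factor of motile cilia, had 5.30, the lowest count among FOX genes. In subclasses A, J and P, then, the members were far apart in count. Subclasses C and O were also wide, with FOXC1 at 757 against FOXC2 at 10.1, and FOXO3 at 2708 against FOXO6 at 146. The 2 FOXK genes, by contrast, differed 1.14-fold.

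Of the FOX genes known for development and for mesenchymal cells, FOXQ1 had 1732, FOXC1 had 757 and FOXF2 had 698. FOXQ1, which is known to promote mesenchymal change in carcinoma cells, was the highest of the 3. These genes lie within 301.8 kb of chromosome 6 (GRCh38, FOXQ1 at 1312098 to 1314758, FOXF2 at 1389576 to 1395603 and FOXC1 at 1609915 to 1613897), each with 1 listed transcript. The related cluster on chromosome 16 gave another picture: FOXC2, at 86566829 to 86569728, had 10.1, and its neighbours FOXF1 and FOXL1 had no listed row. FOXH1, a partner of SMAD proteins in nodal signalling, had 23.0.

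The remaining FOX genes had low counts. FOXD4 had 193, FOXD3, a neural crest factor, had 100.4, FOXD2 had 70.3 and FOXE3, a lens factor, had 8.41. FOXD2 and FOXE3 lie 20.0 kb apart on chromosome 1 with no protein-coding gene between them in the RefSeq annotation.

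In the SOX family, 4 genes held 98.8% of the counts. SOX9 (ENSG00000125398.8), a factor of cartilage and of epithelial progenitors, had 5591, which was 49.7% of the family, and lay above 92.7% of listed protein-coding genes. SOX13 had 2075, SOX12 had 1804 and SOX4, a TGF-beta target known from mesenchymal change, had 1655. The other 7 SOX genes ran from SOX2 at 43.2 down to SOX5 at 5.59. The step from SOX4 to SOX2 was 38.3-fold, the widest step between neighbours in any of the 3 families. No SOX gene had a count from 50 to 1000, a range that held 9 of 26 FOX genes, 9 of 16 KLF genes and 47.0% of all protein-coding genes.

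The high SOX genes belonged to 3 groups. Group E, through SOX9 alone, held 49.7% of the counts. Group C, with SOX12 and SOX4, held 30.7%, and group D, with SOX13, held 18.6%. Within group D the counts fell apart, since SOX6 had 9.93 and SOX5 had 5.59, although all 3 proteins share a coiled coil and are known to pair with each other. The pluripotency factor SOX2 of group B1 had 43.2 and SOX21 of group B2 had 18.9. SOX7 and SOX18 of group F, known from blood vessels, had 18.4 and 8.89, and SOX15 had 30.04. SOX10, the group E factor of neural crest and of some basal-type tumours, had no listed row.

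In the KLF family no gene held as large a share as SOX9 did among SOX genes. KLF6 (ENSG00000067082.15), an early response gene and tumour suppressor, had the highest count at 3330, or 21.4% of the family, followed by KLF4 at 2780, KLF16 at 2001, KLF13 at 1706 and KLF10, a TGF-beta early response gene, at 1613. KLF4 stood above KLF6 with protein-coding transcripts only, at 2491 against 2041. With the most abundant transcript only, KLF4 had 2469 and KLF13, KLF10 and KLF16 had 1554, 1547 and 1514, all above the 1168 of KLF6. KLF2, a quiescence factor of endothelium and lymphocytes, had 991 and KLF5, a promoter of epithelial growth, had 921. Group 2, the acetyltransferase-binding KLFs that mainly activate, had 5 of 6 members listed and held 52.5% of the family's counts. All 5 were at or above 100, beside 13 of 16 genes in the whole KLF family and 78.6% of all protein-coding genes. Erythroid KLF1 was the group 2 member with no listed row.

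Group 3, the KLFs that recruit the SIN3A corepressor, had 6 of 6 members listed and held 38.1%. KLF16, KLF13 and KLF10 were on top, KLF11 had 294, KLF9 had 274 and KLF14 had 35.4, the lowest count in the family. Group 1, the CtBP-binding repressors, held 8.02%, with KLF3 at 653, KLF12 at 547 and KLF8 at 46.7. KLF7, the lowest listed member of group 2, had 147.2. KLF15 and KLF17, which belong to none of these groups, had 147.4 and 60.9. The corepressors known to bind these groups were all listed, with 6136 for CTBP1, 6022 for CTBP2, 3638 for SIN3A and 6059 for SIN3B, each above the highest KLF count.

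**Figure D2:**
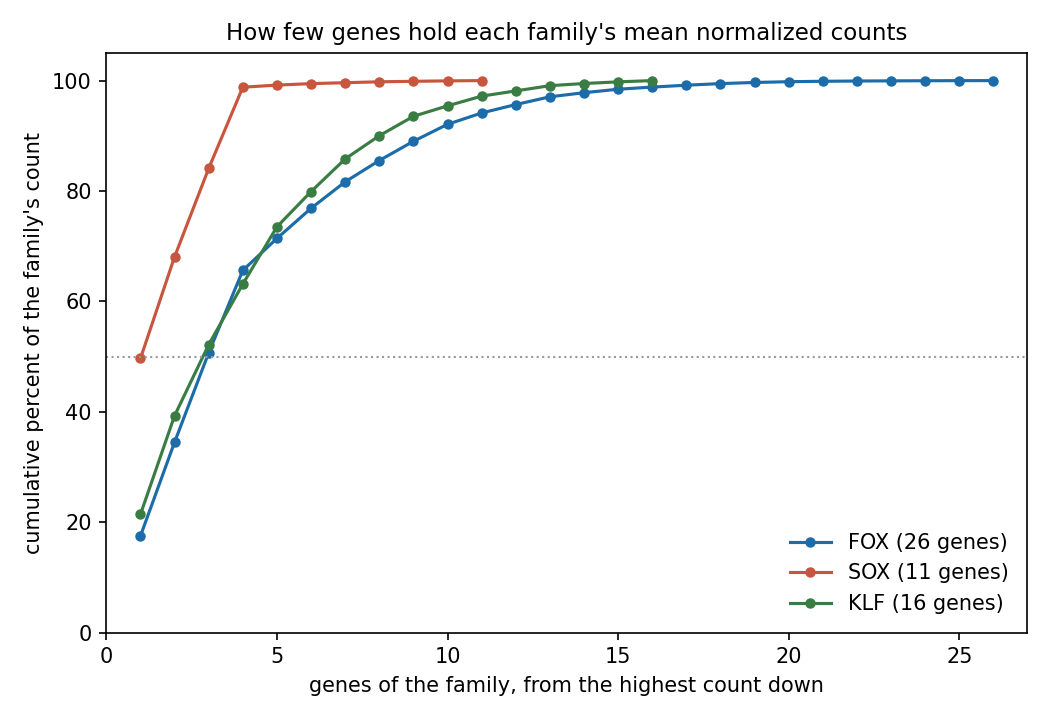
Cumulative percent of each family's mean normalized count (vertical axis) as its genes are added from the highest count down (horizontal axis), 1 line per family, with a dotted line at 50%. SOX passes 50% with 2 genes and reaches 98.8% with 4 of its 11 genes, whereas FOX and KLF pass 50% with 3 genes and rise more slowly per gene. The axis is a number of genes, so families of unlike size are not compared at a like share of genes. FOX reaches 89.0% with 9 of 26 genes and KLF 79.9% with 6 of 16.

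Counts were set per length only for 12 members taken, from general knowledge, to have no intron, each with 1 RefSeq transcript. The RefSeq span of the gene was then used as the length of its transcript, an assumption that was not checked against exon annotation. Per kilobase, FOXQ1 had 651 mean normalized counts, SOX12 had 386, SOX4 had 340, FOXC1 had 190 and FOXD4 had 88.5. FOXD3 had 39.2, FOXD2 had 26.5, SOX2 had 17.2, KLF14 had 10.1, SOX21 had 6.45, FOXE3 had 4.76 and FOXC2 had 3.48. SOX12 and SOX4 thus stayed far above SOX2 and SOX21 per kilobase, and FOXQ1 stood above SOX12, although its count was below that of SOX12.

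The families also differed in their number of listed transcripts per gene. Only transcripts that passed the authors' read filter are listed, so a gene of low count can show fewer than it has. A single transcript was listed for 24 of the 53 genes (45.3%), beside 18.3% of all protein-coding genes. These were 11 of 26 FOX genes, 8 of 11 SOX genes and 5 of 16 KLF genes. SOX9, SOX12, SOX4, FOXQ1, FOXC1 and KLF5 were among them. At the other end, FOXP1 had 21 listed transcripts, FOXM1 and FOXK2 had 10 each, and SOX13 alone had 9 of the 21 SOX transcripts. Counts per transcript are estimates that divide reads among overlapping isoforms, and their error is unknown here.

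Genes with high counts reached them in different ways. FOXK1 was almost a single transcript, with 99.2% of its counts in FOXK1-201 (8375). FOXM1 was split nearly evenly between FOXM1-210 (3825) and FOXM1-202 (3778), both protein coding. FOXP4 had FOXP4-205 at 3437, FOXP4-201 at 2872, FOXP4-204 at 1042 and FOXP4-202 at 689. FOXO3 was divided over 3 protein-coding transcripts, with 1119, 888 and 701. In FOXP1 the most abundant of the 21 transcripts, FOXP1-215, held 23.3% of the gene's counts. Among genes with 2 or more transcripts, the median share of the top transcript was 59.7% in FOX (15 genes), 59.0% in SOX (3 genes) and 75.7% in KLF (11 genes), beside 59.7% in all protein-coding genes.

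Transcripts that the annotation does not class as protein coding held 9.07% of FOX counts, 5.65% of SOX counts and 13.3% of KLF counts, beside 12.4% in all protein-coding genes. Such transcripts were listed for 17 of the 53 genes, and 7 genes had at least 30% of their counts in them. The same shares of genes were not computed over all protein-coding genes. These gene numbers thus have no background and are not a trait of the families. The largest single transcript outside the coding class was FOXK2-202. It is annotated as a target of nonsense-mediated decay, the pathway that destroys RNA with an early stop codon. It had 2479 mean normalized counts, which was 33.4% of the FOXK2 total, beside 3799 for the coding FOXK2-201. In FOX as a whole, decay-annotated transcripts held 5.67% of the counts, beside 4.22% in all protein-coding genes, and most of the FOX share was FOXK2-202. Retained-intron transcripts held 1.31% of FOX counts, beside 4.16% in all protein-coding genes. Processed transcripts, which have no annotated reading frame, held 1.42%, beside 4.02%. A FOXK2 transcript marked as still to be tested by experiment held 0.674% of FOX counts.

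In KLF6, the processed transcripts KLF6-201 (675) and KLF6-202 (579) stood beside the coding KLF6-206 (1168) and KLF6-204 (873), so that 38.7% of the gene's counts were outside coding transcripts. SOX13 had 30.7% outside, mostly in the processed transcripts SOX13-209 (290) and SOX13-201 (262). KLF12 had 34.7% in 1 retained-intron transcript (190), and KLF4 had 10.4% in retained-intron transcripts. In 3 genes of low count the top transcript itself was not coding: a processed transcript in FOXO6 (96.2 of 146), and decay-annotated transcripts in FOXP2 (23.7 of 37.5) and KLF8 (27.7 of 46.7).

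**Figure D3:**
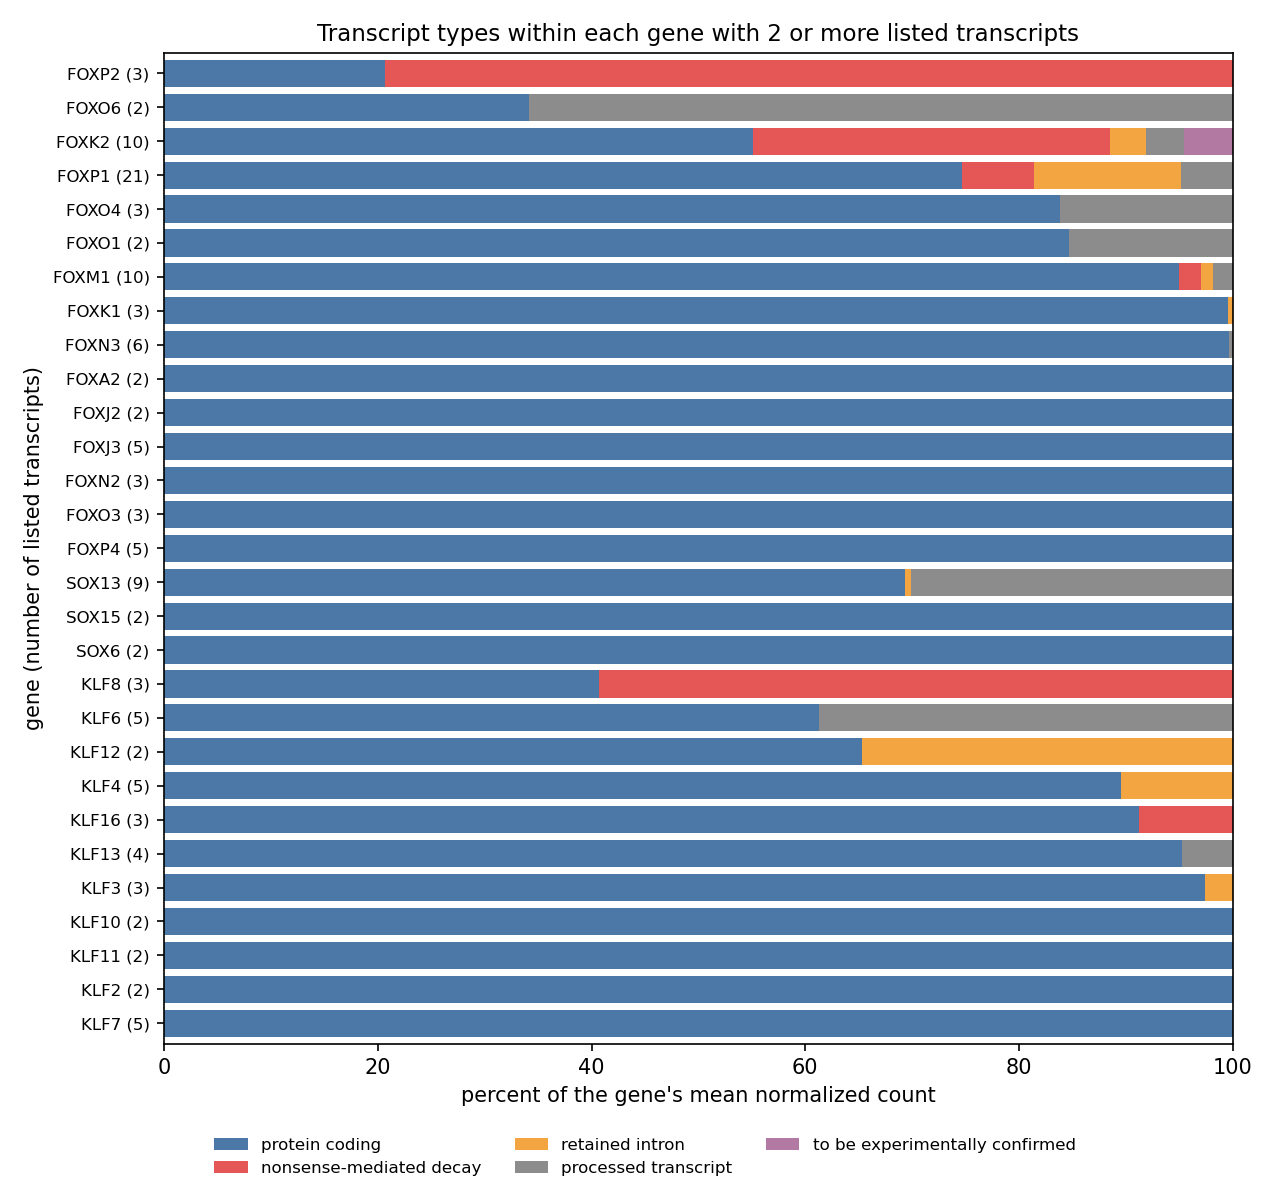
Percent of each gene's mean normalized count in each annotated transcript type, for the 29 FOX, SOX and KLF genes with 2 or more listed transcripts (number of transcripts in brackets). FOXP2, FOXO6 and KLF8 have most of their counts outside protein-coding transcripts, FOXK2 has 44.9% outside and KLF6 38.7%, and many bars are protein coding throughout.

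Some counts may be shared with near-identical copies. The 5 listed FOXD4-like genes summed to 532, which was 2.75-fold the count of FOXD4, so that FOXD4 itself is uncertain. FOXO3B had 588, or 0.217 of the FOXO3 count, and the copies of FOXN3 and KLF3 had 11.2 and 80.8. Antisense genes were listed for 5 members. FOXD2-AS1 had 302, above the 70.3 of FOXD2, whereas FOXD3-AS1 had 36.1, FOXN3-AS1 had 46.5, KLF3-AS1 had 36.8 and SOX9-AS1 had 10.6, each below its partner. The library kit keeps strand, but the strand setting of the counting is not given in the sources used here.

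Relatives with the same kind of DNA-binding domain were set beside the members. Of the 9 SP genes, whose zinc fingers resemble those of KLF, 6 were listed. SP1 had 4580, above KLF6, and SP3 had 2783, SP2 had 1138, SP4 had 405, SP5 had 178 and SP6 had 43.5. The HMG-box effectors of Wnt signalling were all listed, with 834 for TCF7L2, 103 for LEF1, 74.7 for TCF7 and 52.0 for TCF7L1, all below SOX4.

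The name table given for these data holds 82 symbols that fit the rule, 45 FOX, 19 SOX and 18 KLF, and 29 of them had no listed row and are not analysed here. These were 19 FOX, 8 SOX and 2 KLF symbols. The authors dropped transcripts unless 50% of the samples or more held 5 reads or more of them, so a listed transcript may owe its row to the IP libraries, to the input libraries or to both, which the pooled mean does not show.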

How the data were processed

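RIP-seq was done on rRNA-depleted nuclear RNA from 2 Flag-YTHDC1 IP and 2 input libraries, prepared with a stranded kit and sequenced on a HiSeq instrument. Per the study's methods and the submitters' processing notes, the authors mapped reads to a human transcriptome with STAR 2.7.2b (build GRCh38), estimated reads per transcript with RSEM 1.2.31, dropped transcripts unless 50% of the samples or more held 5 reads or more, and corrected batch effects with RUVSeq. The authors deposited 1 signal value per transcript, the mean normalized count from DESeq2 over all libraries, and whether the batch correction enters it is not given in the sources used here. The 4 other numeric columns of the deposited table hold the authors' own comparison (log2 fold change, its standard error, p-value and adjusted p-value) and were not used.

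Depth per library is unknown, so no interval or test was possible. Mean normalized counts were summed per gene with pandas 2.3.3 in Python 3.11.15, and the functions were tested on simulated data. The rule for named genes took, per family, the 8 highest and 2 lowest genes plus FOXA1, FOXC1, FOXM1, FOXO1, FOXO3, FOXP1, FOXQ1, SOX2, SOX4, SOX9, SOX10, KLF2, KLF4, KLF5, KLF6 and KLF10, and the other members were named after their values were seen. Members and lists were chosen with earlier results of these data known. All 53 gene identifiers matched the name table, and coordinates are those of RefSeq on GRCh38.p14.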

Additional observations from a re-analysis of the deposited data

How the results depend on the processing

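No replicate could be left out and no paired analysis was possible because the values used are pooled over libraries. The number of genes at or above 100 was 16 to 19 in FOX, 4 in SOX and 12 or 13 in KLF under the settings that kept this threshold. With transcripts of at least 100, every gene that was kept reached it by construction. The 16 FOX genes, and 12 KLF genes, found without members that have a listed near-copy also follow by construction. FOXD4, FOXO3, FOXN3 and KLF3, which that setting leaves out, were all at or above 100. SOX9, SOX12 and SOX4 have 1 listed transcript each, so no setting at this threshold could lower their number. Other thresholds count another set of genes. At or above 50 there were 20 FOX, 4 SOX and 14 KLF genes, and at or above 500 there were 13, 4 and 9. All these numbers lay within 1.5-fold of the main ones, which is a wide tolerance. Median gene counts moved. With the most abundant transcript only, they were 380 in FOX, 18.9 in SOX and 358 in KLF. With protein-coding transcripts only, they were 506 in FOX and 497 in KLF, and the median top-transcript share was 54.8% in FOX, 65.2% in SOX and 76.7% in KLF. With transcripts of at least 10, the medians were 728 in FOX (24 genes) and 849 in SOX (8 genes), with shares of 55.7% and 57.5%. With transcripts of at least 100, they were 1592 in FOX (18 genes), 1866 in SOX (4 genes) and 956 in KLF (12 genes), with shares of 48.5%, 60.3% and 70.5%. SOX thus had the lowest median without a minimum and the highest with one, since its low genes dropped out. Without members that have a listed near-copy, a setting chosen after seeing the data, the medians were 369 in FOX and 547 in KLF, with shares of 63.3% and 75.7%. SOX9 was the highest SOX gene under each of these settings, but they could not have changed this. Its count of 5591 lay in 1 protein-coding transcript, and the full count of the next gene, SOX13, was 2075. FOXK1 exceeded FOXM1 with the most abundant transcript only (8375 against 3825) and with protein-coding transcripts only (8406 against 8261), and KLF4 then exceeded KLF6, with 2469 against 1168 and 2491 against 2041. Division by length was planned but could be run only for members taken to have no intron, chosen after seeing the data, since no transcript lengths were at hand.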
